A study of Mus musculus with 9 samples.

Results

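The Hox genes of the Hoxa, Hoxb, Hoxc and Hoxd clusters were taken from the count tables by their symbols, which gave 39 of the 23420 genes counted, with 11 members in Hoxa, 10 in Hoxb, 9 in Hoxc and 9 in Hoxd. No measured value entered this choice. The cells were sorted from C57BL/6 mice of 3 to 4 weeks as cells that lack the lineage antigens and carry SCA1, a surface protein shared by stem cells and fibroblast-like cells. They came from thymus (3 libraries), from bone (femur, tibia and pelvis, 3 libraries) and from skin (dermis of the abdomen and back, 3 libraries). Total RNA was sequenced, and neither a genotype nor a treatment separated the groups. Each bone and skin library therefore joins several body sites, and the number of mice behind each library is not stated. The labels do not name separate animals for the libraries, and p-values here measure only the spread between libraries, which may be technical.

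Hox genes encode homeodomain transcription factors that give cells along the body axis and the limbs their positional identity. In mouse the genes of a cluster are ordered so that low-numbered paralogue groups act towards the head and high-numbered groups towards the tail and the far end of the limb, and adult fibroblasts keep much of this code. Pbx, Meis and related TALE homeodomain proteins bind DNA together with Hox proteins, Polycomb complexes keep silent Hox genes shut, and retinoic acid and Cdx factors help to open the clusters in the embryo. Thymus mesenchyme derives largely from neural crest of the pharyngeal arches, limb bones from limb bud mesoderm, and trunk dermis from trunk mesoderm.

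In the deposited mm10 coordinates the Hoxa members lay on chromosome 6 (chr6:52155367-52260880), the Hoxb members on chromosome 11 (chr11:96194361-96368253), the Hoxc members on chromosome 15 (chr15:102921131-103036852) and the Hoxd members on chromosome 2 (chr2:74668310-74765142). The libraries held 78757872 to 116759235 reads on genes. Members took 15211 to 18039 reads per thymus library, 14998 to 21987 per bone library and 16784 to 22896 per skin library. Levels are given as CPM (read counts scaled to library size) after TMM scaling, which corrects for differences in composition, and levels of different genes are compared only as the authors' RPKM (reads per kilobase of gene, scaled by sequencing depth). The thymus libraries are labelled 2, 3 and 1-3, and if 1-3, which no label explains, pools the others it is not an independent sample. The gene intervals of Hoxa3 and Hoxa4, and of Hoxd3 and Hoxd4, overlap in the deposited coordinates, and 14 of the 39 members overlap a gene on the opposite strand in GENCODE vM21. No source used here gives the strand setting, and reads of such pairs cannot be told apart.

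The 9 mesenchymal markers summed to 51220 to 54360 CPM in thymus libraries, against 64290 to 65960 CPM in bone libraries and 331600 to 368400 CPM in skin libraries, and none of them was at 0. The collagen genes Col1a1, Col1a2 and Col3a1 made up from 70.3 to 75.8% of that sum over thymus libraries, from 85.2 to 86.5% over bone libraries and at least 95.65% in each skin library. The 9 markers did not share 1 direction, by edgeR at an adjusted p under 0.05. In thymus against bone 4 were higher and 2 lower, beside 16.5% and 16.1% of all genes tested. In thymus against skin 2 were higher and 5 lower, beside 19.3% and 18.3%. Of these markers, the growth factor receptor gene Pdgfra was higher in thymus than in both other tissues, at 1159.8 ± 37.7 CPM, against 737 ± 59.0 CPM in bone and 776 ± 87.7 CPM in skin. Markers of other cells were also present. The 12 granulocyte and myeloid markers summed to 23.9 to 87.7 CPM in thymus, 3092 to 4235 CPM in bone and 41.2 to 97.1 CPM in skin. The 8 thymocyte markers summed to 62.5 to 177 CPM in thymus, 29.7 to 38.5 CPM in bone and 0.117 to 0.819 CPM in skin, with Ptcra at 0 in bone and Cd3e and Ptcra at 0 in skin. Keratinocyte markers summed to 16.1 to 23.7 CPM in thymus, 2.65 to 3.57 CPM in bone and 32.9 to 65.7 CPM in skin. Endothelium markers summed to 59.1 to 94.6 CPM in thymus, 56.9 to 72.4 CPM in bone and 246 to 343 CPM in skin, where Tek alone averaged 236 CPM. B lineage markers summed to 70.2 to 115 CPM in thymus, 196 to 239 CPM in bone and 115 to 134 CPM in skin. Of these, Ebf1 averaged 74.0 CPM in thymus, 94.0 CPM in bone and 123 CPM in skin. In bulk RNA, fewer cells that make a transcript and less of it per cell cannot be told apart.

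Each tissue had its own span of the Hox code. At a mean of 1 CPM or more, thymus cells had 15 members, which ended at Hoxa5, Hoxb4, Hoxc6 and Hoxd9 in the 4 clusters. Bone cells had 24 members, which reached Hoxa13, Hoxc11 and Hoxd13 but included only Hoxb2 and Hoxb3 of the Hoxb cluster. Skin cells had 25 members, which ended at Hoxa10, Hoxb9 and Hoxd9 and reached Hoxc10, with Hoxc13 besides. No read fell on 12 members in any thymus library, on 5 members in bone and on 5 in skin. A count of 0 over the 3 libraries of a tissue allows a level of up to 0.00881 CPM in thymus, 0.0096 CPM in bone and 0.0123 CPM in skin, for counting error alone.

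**Figure D1:**
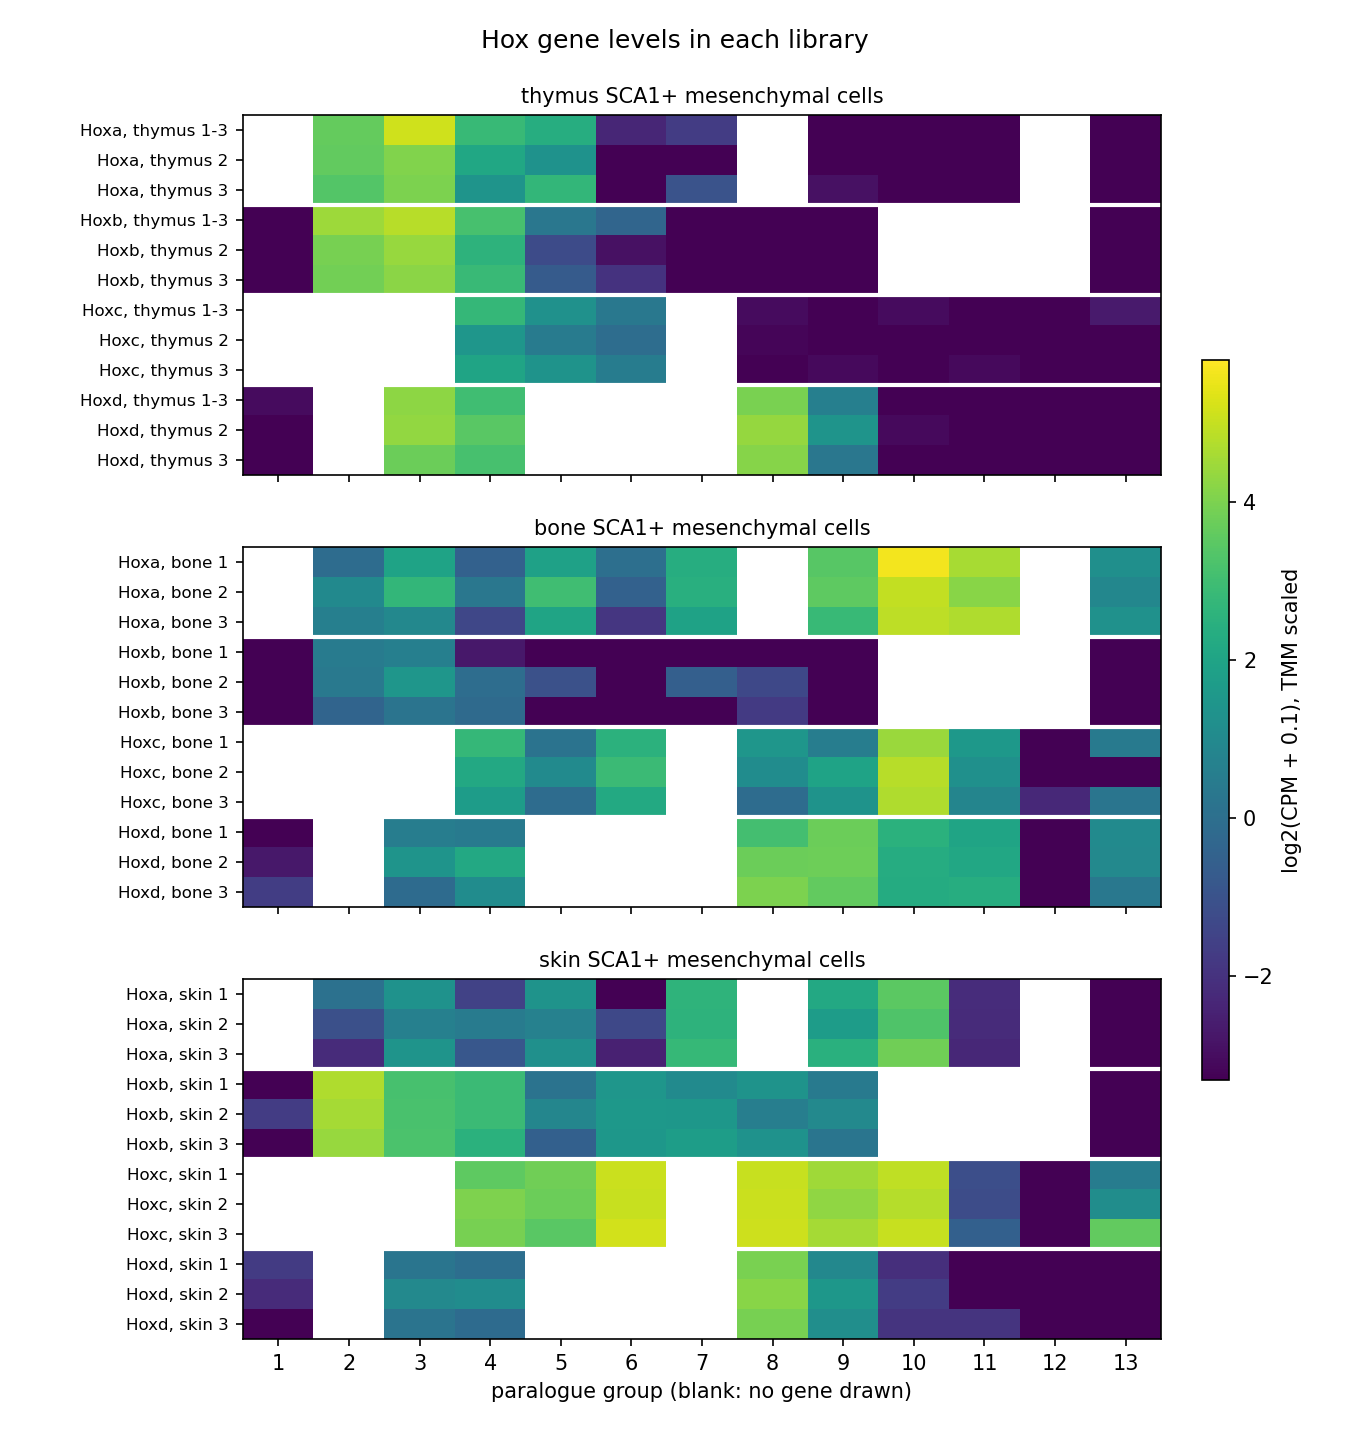
Levels of 38 Hox genes in each library, as log2(CPM + 0.1), by paralogue group (columns) and by cluster and library (rows), with thymus, bone and skin from top to bottom. Thymus is bright in groups 2 to 4 and at Hoxd8 and dark beyond group 9. Bone is brightest at Hoxa9, Hoxa10, Hoxa11, Hoxc10, Hoxd8 and Hoxd9, and skin is bright along Hoxc from group 4 to group 10.

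Paralogue groups 1 to 4 carried 73.7 ± 5.07% of the summed Hox RPKM in thymus, 9.51 ± 2.66% in bone and 23.1 ± 2.37% in skin (SD, n = 3 each). Groups 5 to 8 carried 25.1 ± 4.96% in thymus, 23.1 ± 3.69% in bone and 47.3 ± 1.31% in skin. Groups 9 to 13 carried 1.24 ± 0.577% in thymus, 67.4 ± 5.71% in bone and 29.7 ± 3.64% in skin. Libraries of 1 tissue lay together and apart from those of the other tissues in the share of groups 1 to 4 and in that of groups 9 to 13, while thymus and bone overlapped in the share of groups 5 to 8. Weighted by RPKM, the mean paralogue number ranged from 3.76 to 4.17 over the thymus libraries, from 8.36 to 9.06 over the bone libraries and from 6.59 to 7.07 over the skin libraries. These shares describe the members and were given no test.

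**Figure D2:**
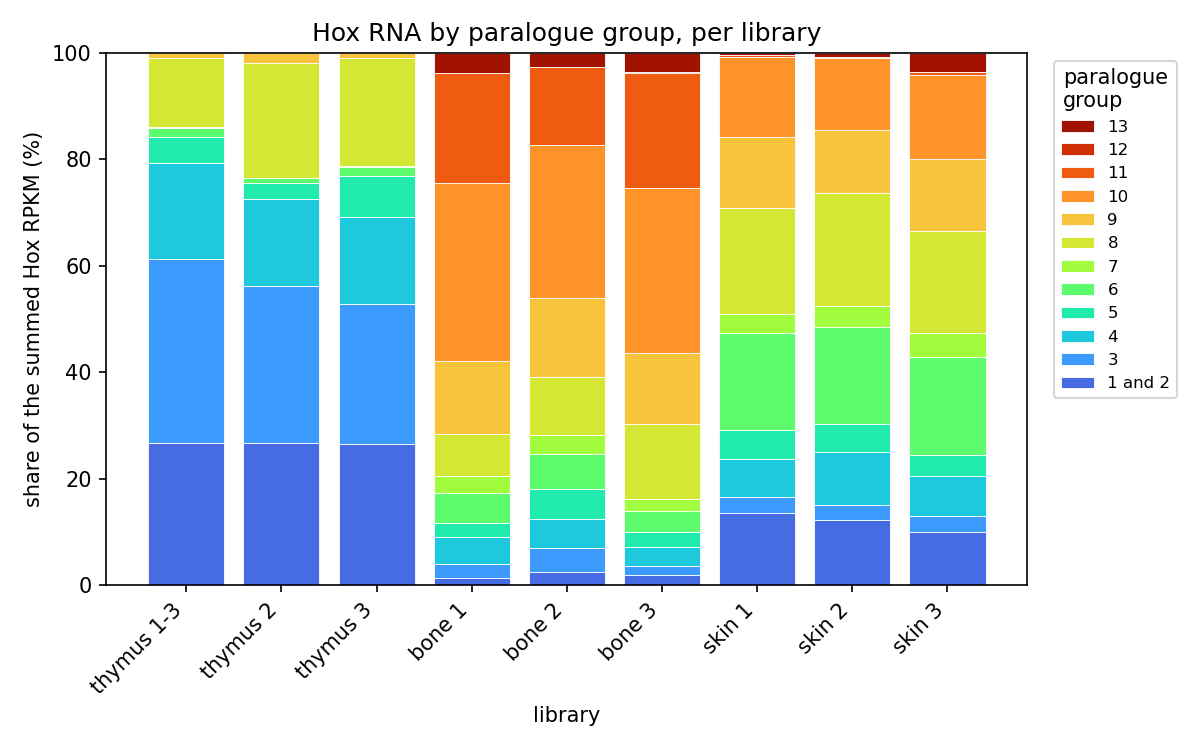
Share of the summed Hox RPKM of each library in each paralogue group (1 and 2 joined), in percent, with 1 bar per library in the order thymus, bone and skin. Low groups fill most of each thymus bar (69.3 to 79.2% in groups 1 to 4), groups 9 to 13 fill 60.9 to 71.6% of each bone bar, and groups 5 to 8 fill 46.0 to 48.6% of each skin bar.

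The clusters also carried unequal shares. Hoxd held 33.7 ± 7.41% of the summed Hox RPKM in thymus, 24.0 ± 3.53% in bone and 10.5 ± 1.54% in skin. Hoxa held 32.2 ± 3.99% in thymus, 45.6 ± 4.38% in bone and 9.41 ± 0.769% in skin. Hoxb held 28.7 ± 2.20% in thymus, 1.79 ± 0.834% in bone and 19.7 ± 1.85% in skin. Hoxc held 5.41 ± 1.53% in thymus, 28.6 ± 1.35% in bone and 60.4 ± 2.34% in skin (SD, n = 3 each). Skin cells thus held most of their Hox RNA in a cluster that was the smallest in thymus, and bone cells held little in Hoxb.

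Of the 39 members, 34 had enough reads to be tested, and Hoxb1, Hoxb13, Hoxc12, Hoxd1 and Hoxd12 did not. Calls were made at an adjusted p under 0.05 by edgeR's quasi-likelihood test with Benjamini-Hochberg adjustment over 15635 genes. In thymus against bone, 9 tested members (26.5%) were higher and 15 (44.1%) lower, where 16.5% of all genes tested were higher and 16.1% lower. The higher members were 8 of the 10 tested in groups 1 to 4 and Hoxb6, and the lower ones were 4 of 11 in groups 5 to 8 and 11 of 13 in groups 9 to 13. In thymus against skin, 6 (17.65%) were higher and 17 (50%) lower, beside 19.3% and 18.3% of all genes. The share of higher members was thus no larger than over all genes, and the 6 were all in groups 1 to 4. In bone against skin, 8 (23.5%) were higher and 10 (29.4%) lower, beside 23.7% and 23.4% of all genes. Here too the share of higher members was no larger than over all genes, and the 8 were Hoxa5 and 7 members of groups 9 to 13. With counts scaled by library size alone, the members called in bone against skin were 13 higher and 9 lower, and all tested genes had a median log2 fold change of 0.72.

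The median log2 fold change of the tested members was -2.66 in thymus against bone, -2.28 in thymus against skin and -0.31 in bone against skin, where all tested genes had medians of 0.02, 0.03 and 0.03. With members at 0 reads in a tissue set to their bound and those at 0 in both left out, the medians were -2.94, -2.63 and -0.31. Within the 34 members, paralogue number and log2 fold change had a Spearman's rho of -0.855 in thymus against bone, -0.639 in thymus against skin and 0.391 in bone against skin. The comparisons share libraries and neighbouring genes are not independent, so these values only describe the order seen. Libraries of the tissues compared did not overlap for 25, 24 and 26 of the 34 tested members in the 3 comparisons, beside 49.4%, 51.9% and 58.3% of all genes tested.

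**Figure D3:**
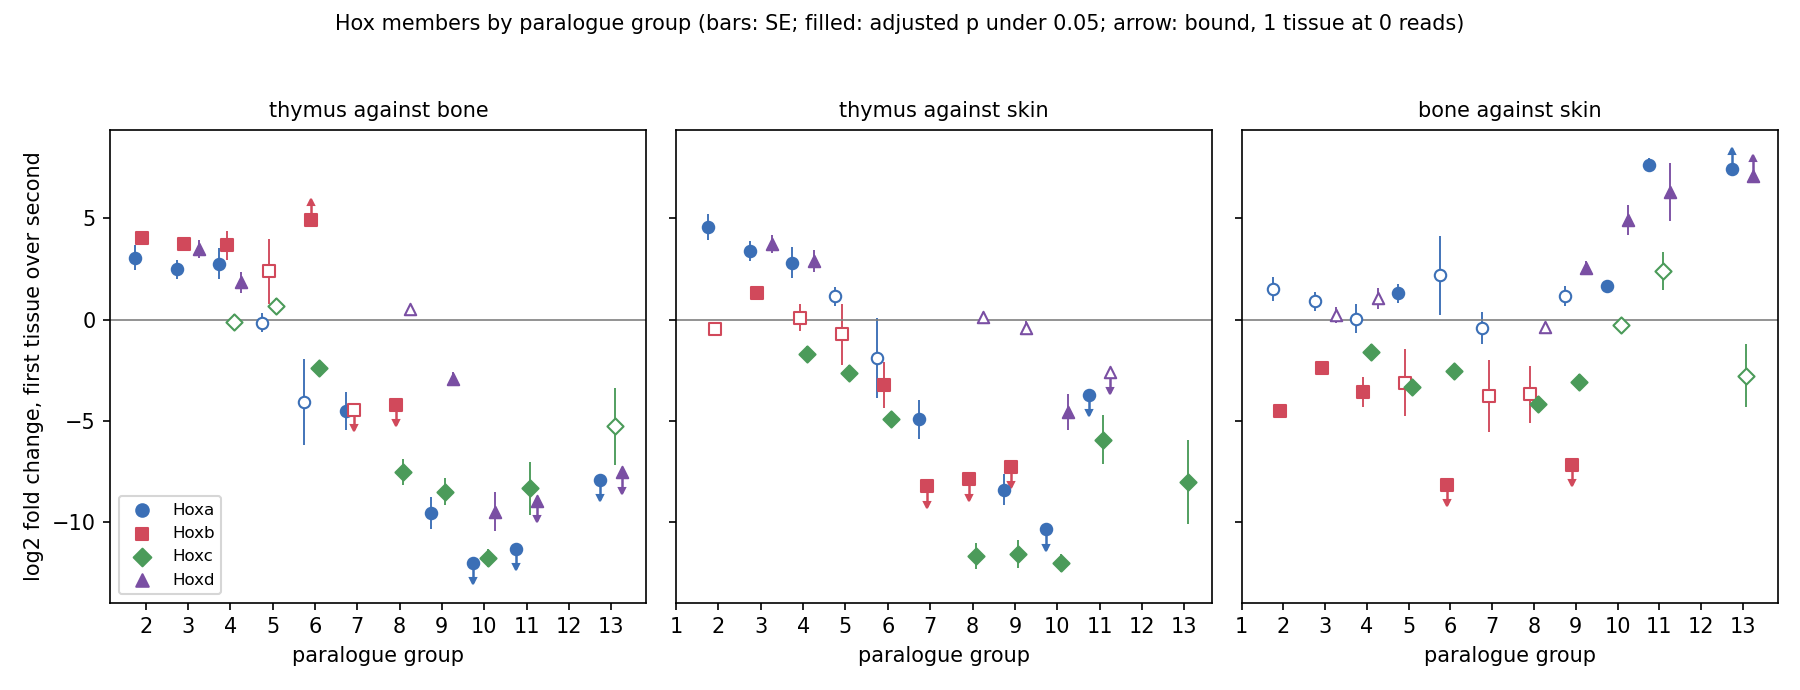
Log2 fold change of tested Hox members by paralogue group (bars: SE; filled: adjusted p under 0.05 by edgeR's quasi-likelihood test) for thymus against bone, thymus against skin and bone against skin, coloured by cluster. Arrows mark bounds where a tissue had 0 reads. In thymus against bone the points pass from 3.05 (SE 0.61) at Hoxa2 to bounds at the bottom of the panel for Hoxa10 and Hoxa11, and in bone against skin the Hoxb and Hoxc points of groups 2 to 9 lie below 0.

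Group 2 and 3 genes of Hoxa and Hoxd were higher in thymus than in both other tissues. Hoxa2, the selector of second pharyngeal arch identity in mouse, was at 12.3, 12.02 and 10.2 CPM in thymus libraries 1-3, 2 and 3. It was at 0.835, 1.91 and 1.42 CPM in bone and at 0.956, 0.366 and 0.115 CPM in skin. All thymus libraries lay above all others, and Hoxa2 was higher than in bone by 3.05 ± 0.61 (log2, SE; adjusted p = 0.00247) and higher than in skin by 4.58 ± 0.66 (adjusted p = 0.000217), which was 5.60 without skin 1. Bone and skin overlapped, and their difference of 1.53 ± 0.59 did not pass (adjusted p = 0.0526).

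Hoxa3, which mice need to form a thymus and parathyroids, was at 34.8, 16.6 and 16.1 CPM in thymus, at 3.79, 6.41 and 1.81 CPM in bone and at 2.44, 1.47 and 2.51 CPM in skin. Its level in thymus 1-3 was more than in either other thymus library, yet the lowest thymus library was still above every bone and skin library. Hoxa3 was higher in thymus than in bone by 2.49 ± 0.47 (log2, SE; adjusted p = 0.00219) and higher than in skin by 3.39 ± 0.49 (adjusted p = 0.000312). Its partner Hoxd3 was at 19.2, 19.8 and 13.5 CPM in thymus, at 1.35, 2.52 and 0.803 CPM in bone and at 1.08, 1.88 and 1.03 CPM in skin. No bone or skin library came near the thymus range, with a log2 difference of 3.48 ± 0.43 from bone (adjusted p = 8.38e-05) and 3.72 ± 0.44 from skin (adjusted p = 4.60e-05).

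Hoxd4, which helps to shape the neck vertebrae, was at 7.85, 10.98 and 8.64 CPM in thymus, at 1.22, 4.42 and 2.04 CPM in bone and at 0.877, 2.07 and 0.807 CPM in skin. The thymus libraries were again above all others. Its difference from bone was 1.84 ± 0.51 (log2, SE; adjusted p = 0.0167), a call that did not hold when thymus 2 or bone 3 was left out (adjusted p up to 0.0611) and that was 2.49 without bone 2, and its difference from skin was 2.88 ± 0.54 (adjusted p = 0.00122). Hoxa4 averaged 4.56 ± 2.24 CPM in thymus, 0.673 ± 0.420 CPM in bone and 0.657 ± 0.544 CPM in skin and was called higher in thymus in both comparisons. Neither Hoxa4 call held when thymus 1-3 was left out, and the one against bone did not hold without bone 3 either, with adjusted p up to 0.0914 and 0.0704, while the difference from skin was 3.71 without skin 2, against 2.80 with all libraries (log2).

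Promoter sequence is shown for each member that was called higher in thymus in either comparison and has a RefSeq entry at the deposited gene start. The 250 bases before the start are shown 5′ to 3′ from RefSeq in GRCm38.p6, for Hoxa2 (chr6:52164832-52165081, minus strand), Hoxd3 (chr2:74711743-74711992, plus strand), Hoxd4 (chr2:74721728-74721977, plus strand) and Hoxb4 (chr11:96318017-96318266, plus strand). Capitals mark letters that match TGATTNAT (a site of HOX with PBX), TTTATG (CDX-like) or TGACAG (MEIS) on either strand. In Hoxa2 the capitals are TGATTNAT read on the other strand and then TGACAG, in Hoxd3 and Hoxd4 they are TTTATG, and Hoxb4 has none of the 3.
Hoxa2: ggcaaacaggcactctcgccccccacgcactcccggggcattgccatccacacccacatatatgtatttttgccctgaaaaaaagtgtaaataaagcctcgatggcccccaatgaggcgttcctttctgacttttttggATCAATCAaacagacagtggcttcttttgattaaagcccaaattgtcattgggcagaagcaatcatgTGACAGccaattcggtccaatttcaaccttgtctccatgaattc
Hoxd3: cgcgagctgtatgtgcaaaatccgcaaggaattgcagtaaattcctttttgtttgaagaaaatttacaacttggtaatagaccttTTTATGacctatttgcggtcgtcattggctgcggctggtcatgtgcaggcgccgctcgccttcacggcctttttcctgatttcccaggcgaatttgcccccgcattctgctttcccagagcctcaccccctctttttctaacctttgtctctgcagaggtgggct
Hoxd4: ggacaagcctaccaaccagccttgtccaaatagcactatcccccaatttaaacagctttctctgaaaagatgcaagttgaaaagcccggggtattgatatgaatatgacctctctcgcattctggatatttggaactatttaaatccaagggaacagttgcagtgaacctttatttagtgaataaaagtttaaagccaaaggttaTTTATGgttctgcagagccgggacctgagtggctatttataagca
Hoxb4: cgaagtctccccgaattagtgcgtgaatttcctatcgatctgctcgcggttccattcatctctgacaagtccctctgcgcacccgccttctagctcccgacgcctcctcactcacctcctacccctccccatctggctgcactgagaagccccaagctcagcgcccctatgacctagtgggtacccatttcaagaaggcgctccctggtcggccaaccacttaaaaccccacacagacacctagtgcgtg

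Group 2 to 4 members of Hoxb separated bone from both other tissues. Hoxb2, which acts in hindbrain patterning, was at 21.8, 15.0 and 14.4 CPM in thymus, at 1.27, 1.19 and 0.673 CPM in bone and at 26.4, 23.9 and 21.1 CPM in skin. Thymus and skin overlapped (log2 difference -0.48 ± 0.25, adjusted p = 0.155), and bone lay below both. Hoxb2 was higher in thymus than in bone by 4.02 ± 0.28 (adjusted p = 1.37e-06) and lower in bone than in skin (log2 fold change -4.50 ± 0.29, adjusted p = 5.34e-07).

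Hoxb3, which acts with Hoxa3 and Hoxd3 in pharyngeal organs, was at 28.3, 20.7 and 18.6 CPM in thymus, at 1.44, 2.67 and 1.04 CPM in bone and at 8.82, 9.04 and 9.15 CPM in skin. The 3 tissues did not overlap and were ordered thymus, skin, bone. Each step passed, with log2 differences of 3.71 ± 0.34 for thymus against bone (adjusted p = 7.87e-06), 1.32 ± 0.31 for thymus against skin (adjusted p = 0.00495) and -2.39 ± 0.32 for bone against skin (adjusted p = 9.31e-05). Hoxb4, known for its activity in blood stem cells and neck vertebrae, was at 8.77, 5.79 and 7.10 CPM in thymus, at 0.0485, 0.870 and 0.792 CPM in bone and at 7.35, 7.42 and 5.59 CPM in skin. Bone again lay below both, with log2 fold changes of 3.66 ± 0.73 for thymus against bone (adjusted p = 0.00315) and -3.57 ± 0.73 for bone against skin (adjusted p = 0.00232). Thymus and skin overlapped, and their difference of 0.09 ± 0.65 did not pass (adjusted p = 0.934).

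**Figure D4:**
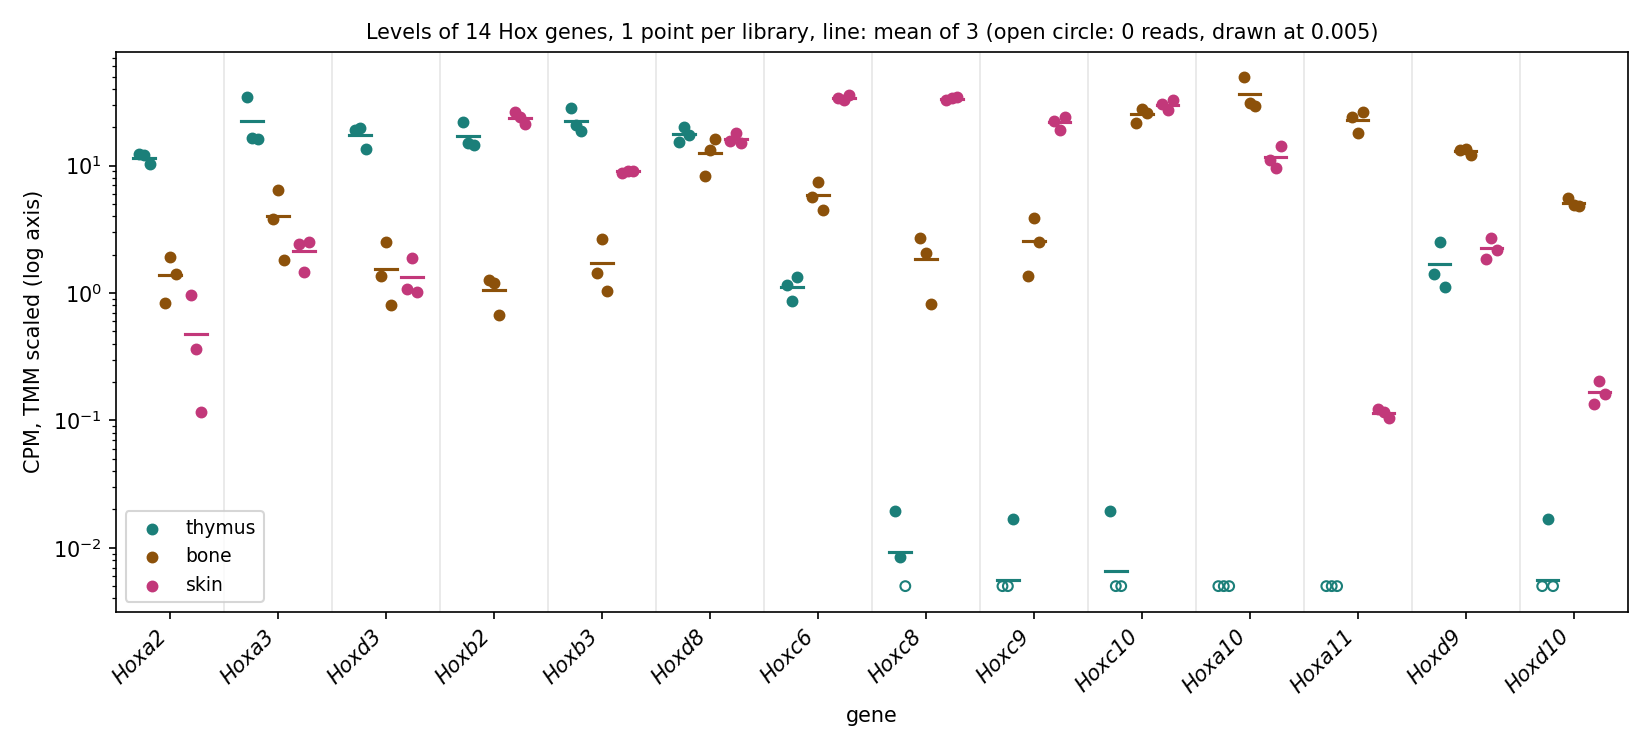
CPM of 14 Hox genes in each library on a log axis, with thymus left of bone and bone left of skin for each gene, a line at the mean of 3 and open circles at 0.005 for libraries with 0 reads. Hoxa2, Hoxa3 and Hoxd3 are highest in thymus, Hoxb2 is lowest in bone, Hoxd8 overlaps across tissues, and Hoxc8 to Hoxa11 have at most 2 reads in any thymus library.

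The rest of the Hoxb cluster had few reads outside skin. Hoxb6, Hoxb7, Hoxb8 and Hoxb9, genes of the trunk, were at 2.75 ± 0.0898, 2.68 ± 0.659, 2.11 ± 0.620 and 1.39 ± 0.408 CPM in skin. Thymus had 92 reads of Hoxb6 and 0 of the other three, and bone had 0 of Hoxb6, 68 of Hoxb7 (all in bone 2), 52 of Hoxb8 and 0 of Hoxb9. All 4 were called lower in thymus than in skin, Hoxb7 by at least 304-fold, Hoxb8 by at least 239-fold and Hoxb9 by at least 157-fold, with a floor of 3 reads over the thymus libraries. Hoxb6 was also lower (log2 fold change -3.24 ± 1.12, adjusted p = 0.0452), a call that did not hold without thymus 2, without thymus 3 or without any 1 skin library (adjusted p up to 0.129) and that was -4.88 without thymus 1-3. Hoxb6 and Hoxb9 were also called lower in bone than in skin, by at least 286-fold and 144-fold, and Hoxb6 was called higher in thymus than in bone by at least 30.2-fold (at least 9.59-fold without thymus 1-3, which held 70 of the 92 reads), a call that the limma test on log2 RPKM did not make. Hoxb8 was called lower in thymus than in bone, with reads in 2 of 3 bone libraries, and that call did not hold without thymus 1-3 (adjusted p = 0.0533). Hoxb5 averaged 0.661 ± 0.423 CPM in thymus, 0.125 ± 0.217 CPM in bone and 1.10 ± 0.556 CPM in skin and was called in no comparison.

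The Hoxc cluster held most of the Hox RNA of skin. Hoxc6, which helps to specify thoracic identity, was at 1.16, 0.864 and 1.34 CPM in thymus, at 5.65, 7.38 and 4.50 CPM in bone and at 33.8, 32.7 and 36.1 CPM in skin. No libraries of different tissues overlapped. The log2 fold changes were -2.38 ± 0.24 for thymus against bone (adjusted p = 1.52e-05), -4.93 ± 0.26 for thymus against skin (adjusted p = 1.26e-07) and -2.55 ± 0.23 for bone against skin (adjusted p = 5.71e-06). At 15.1 RPKM, Hoxc6 was also the member with the highest mean level per length in skin.

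Hoxc8, a gene of thoracic vertebrae and brachial motor neurons, had 2, 1 and 0 reads in the thymus libraries. It was at 2.68, 2.05 and 0.824 CPM in bone and at 32.8, 33.6 and 34.3 CPM in skin, and the tissues did not overlap. Its level in thymus was 3812-fold lower than in skin (95% counting interval 1304 to 18488) and 215-fold lower than in bone (73.3 to 1046), and in bone against skin the log2 fold change was -4.18 ± 0.40 (adjusted p = 1.04e-05). Hoxc9, another thoracic gene, had 0, 0 and 2 reads in thymus, 1.36, 3.86 and 2.495 CPM in bone and 22.5, 19.2 and 23.9 CPM in skin. It too lay apart in each tissue, 3761-fold lower in thymus than in skin (1041 to 31067), 449-fold lower in thymus than in bone (124 to 3711), and lower in bone than in skin (log2 fold change -3.09 ± 0.41, adjusted p = 8.80e-05).

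Towards the front of the cluster the thymus values were less far off. Hoxc4 was at 6.70, 2.68 and 3.92 CPM in thymus, at 6.66, 4.49 and 3.16 CPM in bone and at 11.6, 16.4 and 14.9 CPM in skin. Hoxc5 was at 2.35, 1.28 and 2.48 CPM in thymus, at 1.010, 1.96 and 0.846 CPM in bone and at 13.9, 13.5 and 10.99 CPM in skin. For both genes, which pattern neck and upper thorax, thymus overlapped with bone and skin lay above both. In thymus against skin the log2 fold changes were -1.69 ± 0.37 for Hoxc4 (adjusted p = 0.00346) and -2.65 ± 0.40 for Hoxc5 (adjusted p = 0.000271). In bone against skin they were -1.58 ± 0.37 (adjusted p = 0.00400) and -3.33 ± 0.41 (adjusted p = 4.90e-05), and the Hoxc4 call did not hold with counts scaled by library size alone (adjusted p = 0.0502). Neither Hoxc4 call held with limma on log2(RPKM + 1) without a filter (adjusted p = 0.0585 in thymus against skin and 0.0817 in bone against skin).

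Hoxc10, known in hindlimb motor neurons and limb mesoderm, was shared by bone and skin. It had 2, 0 and 0 reads in thymus, 21.6, 28.0 and 26.0 CPM in bone and 30.5, 27.2 and 32.4 CPM in skin. Bone and skin overlapped (log2 difference -0.25 ± 0.22, adjusted p = 0.378), and thymus was 4313-fold lower than bone (95% counting interval 1194 to 35620) and 5158-fold lower than skin (1427 to 42597). Hoxc11, of the same end of the cluster, averaged 0.00558 ± 0.00966 CPM in thymus, 2.26 ± 0.559 CPM in bone and 0.428 ± 0.139 CPM in skin. It was called lower in thymus than in either, and its difference between bone and skin of 2.40 ± 0.95 did not pass (adjusted p = 0.0561).

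Hoxc13, which mice need for hair and nails and which drives hair keratin genes, was uneven between libraries of a tissue. It had 6, 0 and 0 reads in thymus, 126, 0 and 98 reads in bone and 119, 143 and 1055 reads in skin, so that skin 3 held 1055 of the 1317 skin reads. It was called lower in thymus than in skin (log2 fold change -8.04 ± 2.07, adjusted p = 0.0123), a call that did not hold when thymus 2 was left out (adjusted p = 0.0505). Without skin 3 the log2 fold change was -6.41 (adjusted p = 0.0380), and without thymus 1-3 no thymus reads were left (adjusted p = 0.0272). Krt71, a hair follicle keratin chosen after its values were seen, was at 76.3, 70.5 and 240.5 CPM in the same skin libraries. Its part in the Hoxc13 level was not tested.

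The tested members of groups 9 to 13 in Hoxa and Hoxd had their highest means in bone. Hoxa10, which acts in the thigh bone and lumbar vertebrae, had 0 reads in each thymus library, 49.6, 30.7 and 29.6 CPM in bone and 11.1, 9.598 and 14.2 CPM in skin. Thymus was at least 4161-fold lower than bone and at least 1322-fold lower than skin. Bone lay above skin in every library, by 1.65 ± 0.25 (log2, SE; adjusted p = 0.000479).

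Hoxa11, needed with its paralogues for the bones of the lower leg and forearm, had 0 reads in each thymus library, 24.2, 18.2 and 26.4 CPM in bone and 0.124, 0.117 and 0.104 CPM in skin. The skin values stand for 8 to 11 reads. Hoxa11 was at least 2603-fold lower in thymus than in bone and at least 13.1-fold lower in thymus than in skin, and higher in bone than in skin by 7.63 ± 0.34 (log2, SE; adjusted p = 2.84e-07). Its antisense neighbour Hoxa11as had 0 CPM in thymus, 14.3 ± 1.28 CPM in bone and 0.0866 ± 0.0964 CPM in skin, and was called in all 3 comparisons. The skin values stand for 0, 13 and 6 reads in skin 1, 2 and 3, so thymus and skin overlapped at 0. The deposited intervals of Hoxa11 and Hoxa11as do not overlap, but in GENCODE vM21 Hoxa11 overlaps the antisense gene Hoxa11os, and without strand their reads cannot be told apart.

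Hoxa9 was at 0, 0 and 0.0335 CPM in thymus, at 10.8, 11.5 and 6.92 CPM in bone and at 4.41, 3.18 and 5.48 CPM in skin. Thymus held only 4 reads, all in thymus 3, and the log2 fold changes were -9.56 ± 0.78 against bone (adjusted p = 3.67e-06) and -8.40 ± 0.76 against skin (adjusted p = 5.70e-06). Without thymus 3 no reads were left, and thymus was at least 716-fold lower than bone and at least 321-fold lower than skin. Bone lay above skin without overlap, yet the difference of 1.16 ± 0.49 did not pass (adjusted p = 0.0728). Hoxa7, a thoracic gene, followed a like order in thymus, with 0.206, 0 and 0.402 CPM there, 5.08, 5.34 and 3.69 CPM in bone and 5.95, 5.89 and 6.83 CPM in skin. It was lower in thymus than in bone (log2 fold change -4.53 ± 0.94, adjusted p = 0.00393) and than in skin (-4.93 ± 0.95, adjusted p = 0.00215), and the difference between bone and skin did not pass (-0.40 ± 0.80, adjusted p = 0.709). Without thymus 2, the library with 0 reads, the Hoxa7 values were -3.94 against bone and -4.34 against skin, and without thymus 3 they were -5.53 and -5.93.

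The Hoxd members of these groups had reads mainly in bone. Hoxd9 was at 1.42, 2.53 and 1.11 CPM in thymus, at 13.2, 13.5 and 12.2 CPM in bone and at 1.83, 2.71 and 2.17 CPM in skin. Thymus and skin overlapped, and bone lay above both, with log2 fold changes of -2.94 ± 0.36 for thymus against bone (adjusted p = 6.56e-05) and 2.54 ± 0.35 for bone against skin (adjusted p = 0.000111). Hoxd10, a hindlimb gene, was at 0, 0.0168 and 0 CPM in thymus, at 5.55, 4.90 and 4.79 CPM in bone and at 0.135, 0.205 and 0.161 CPM in skin. The tissues did not overlap, and thymus was 866-fold lower than bone (95% counting interval 239 to 7160) while bone was higher than skin by 4.92 ± 0.75 (adjusted p = 0.000236).

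Hoxd11, which acts with Hoxa11 in the limb, averaged 4.43 ± 0.569 CPM in bone, and had 0 reads in thymus and 14 in skin, all in skin 3. It was at least 504-fold lower in thymus than in bone and higher in bone than in skin by 6.30 ± 1.41 (log2, SE; adjusted p = 0.00518). That difference was 5.71 without skin 1, and without skin 3, which left 0 reads in skin, bone was at least 232-fold higher. Hoxa13 and Hoxd13, the genes of hand and foot, had reads in bone alone, 653 and 526 in all, at 2.11 ± 0.318 and 1.66 ± 0.439 CPM. Each was present in all 3 bone libraries and had 0 reads in the 6 libraries of thymus and skin. Hoxa13 was at least 240-fold lower in thymus than in bone and at least 172-fold higher in bone than in skin, and Hoxd13 at least 188-fold lower and at least 135-fold higher in the same comparisons. The Hoxd13 call in thymus against bone did not hold by edgeR with a replicate block (adjusted p = 0.0637).

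Promoters are shown in the same way for the 6 members that were called lower in thymus, had 4 reads or fewer there and have an entry at the deposited gene start. They are Hoxa9 (chr6:52227371-52227620, minus strand), Hoxa10 (chr6:52240855-52241104, minus strand), Hoxa13 (chr6:52260881-52261130, minus strand), Hoxb8 (chr11:96281655-96281904, plus strand), Hoxd10 (chr2:74691641-74691890, plus strand) and Hoxd11 (chr2:74679308-74679557, plus strand). Capitals mark the same motifs. Hoxa9, Hoxa10, Hoxa13 and Hoxd10 held none of them in this window, Hoxb8 held TTTATG on each strand, and Hoxd11 held TTTATG read on the other strand.
Hoxa9: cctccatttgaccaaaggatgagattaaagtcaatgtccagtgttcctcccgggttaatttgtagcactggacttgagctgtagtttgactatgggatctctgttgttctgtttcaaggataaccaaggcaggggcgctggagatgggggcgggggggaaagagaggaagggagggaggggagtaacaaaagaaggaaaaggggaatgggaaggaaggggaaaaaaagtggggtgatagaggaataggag
Hoxa10: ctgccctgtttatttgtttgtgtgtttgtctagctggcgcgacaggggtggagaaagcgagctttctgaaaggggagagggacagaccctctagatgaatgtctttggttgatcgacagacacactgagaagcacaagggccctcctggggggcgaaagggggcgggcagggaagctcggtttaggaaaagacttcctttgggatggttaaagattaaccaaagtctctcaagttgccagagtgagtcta
Hoxa13: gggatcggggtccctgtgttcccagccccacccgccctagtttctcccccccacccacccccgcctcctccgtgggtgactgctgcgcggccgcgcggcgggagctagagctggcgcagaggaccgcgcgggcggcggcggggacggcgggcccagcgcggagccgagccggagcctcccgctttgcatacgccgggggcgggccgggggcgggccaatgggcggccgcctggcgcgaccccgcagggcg
Hoxb8: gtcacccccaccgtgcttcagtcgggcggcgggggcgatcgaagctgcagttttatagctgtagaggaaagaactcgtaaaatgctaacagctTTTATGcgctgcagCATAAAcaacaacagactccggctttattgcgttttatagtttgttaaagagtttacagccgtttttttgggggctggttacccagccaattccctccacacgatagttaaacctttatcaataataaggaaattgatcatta
Hoxd10: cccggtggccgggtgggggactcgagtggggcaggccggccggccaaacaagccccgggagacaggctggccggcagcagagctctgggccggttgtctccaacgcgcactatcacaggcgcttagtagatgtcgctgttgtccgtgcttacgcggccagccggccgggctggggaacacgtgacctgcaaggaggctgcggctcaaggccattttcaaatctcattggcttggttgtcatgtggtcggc
Hoxd11: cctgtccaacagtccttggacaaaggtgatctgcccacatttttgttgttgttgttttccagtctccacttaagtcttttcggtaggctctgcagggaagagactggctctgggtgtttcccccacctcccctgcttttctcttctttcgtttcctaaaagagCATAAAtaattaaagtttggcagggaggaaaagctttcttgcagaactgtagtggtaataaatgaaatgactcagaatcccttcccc

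Among the members, 22 had an entry in the RefSeq promoter table, with 24 promoters in all. On these 250 bases TGATTNAT was found in 2 of the 24 and in 2.83% of the 32851 promoters of the table. TTTATG was found in 5 of the 24 and in 10.8% of the table, and TGACAG in 2 of the 24 and in 15.9% of the table. Matches with TTTATG fell on Hoxa7, Hoxb8, Hoxd3, Hoxd4 and Hoxd11, which differed in the tissue where they were highest. The median GC content was 58.6% in member promoters and 52.4% in all.

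Hoxd8, a group 8 gene of the trunk, was called in no comparison. It was at 15.4, 20.2 and 17.4 CPM in thymus, at 8.35, 13.3 and 16.0 CPM in bone and at 15.5, 18.0 and 15.1 CPM in skin, and the tissues overlapped in every pair. The log2 fold changes were 0.50 ± 0.23 for thymus against bone (adjusted p = 0.122), 0.13 ± 0.23 for thymus against skin (adjusted p = 0.710) and -0.37 ± 0.23 for bone against skin (adjusted p = 0.210). At 12.6 RPKM it had the highest mean level per length of all members in thymus, ahead of Hoxb2 at 10.7 RPKM and Hoxa3 at 9.06 RPKM. In bone the order began with Hoxc10 at 13.4 RPKM, Hoxa11 at 13.1 RPKM and Hoxa10 at 11.8 RPKM. In skin it began with Hoxc6 at 15.1 RPKM, Hoxc10 at 10.9 RPKM and Hoxb2 at 10.2 RPKM.

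Hoxa5, a gene of lung and neck mesenchyme, averaged 4.65 ± 2.09 CPM in thymus, 5.17 ± 2.43 CPM in bone and 2.10 ± 0.503 CPM in skin. It was called only as higher in bone than in skin (log2 fold change 1.30 ± 0.46, adjusted p = 0.0358), and that call did not hold without thymus 1-3, bone 2 or any 1 skin library (adjusted p up to 0.181). Hoxa6 had 10 reads in thymus, 182 in bone and 27 in skin and was called in no comparison. The 5 members too low to test had 0 to 26 reads per tissue, with Hoxb13 and Hoxd12 at 0 reads in all 9 libraries.

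Members at 1 CPM or more varied between libraries of a tissue by a median coefficient of variation of 22.7% in thymus, 30.9% in bone and 16.9% in skin, against 14.8%, 15.0% and 15.2% for all genes at that level. In bone, 13 of the 24 such members were highest in bone 2, 7 in bone 1 and 4 in bone 3. Early blood progenitor markers differed in the bone library where they were highest. Kit was at 4.42, 27.3 and 14.6 CPM and Flt3 at 3.84, 19.7 and 13.1 CPM in bone 1, 2 and 3. Gfi1 and Tal1 were also highest in bone 2. Myb, at 42.6, 48.8 and 53.2 CPM, and Runx1, at 116, 122 and 188 CPM, were highest in bone 3. Cd34, at 599, 577 and 526 CPM, was highest in bone 1. The myeloid marker Mpo was at 206, 131 and 215 CPM. Hoxa9, Hoxa10 and Hoxb4 are also known from blood progenitors. Among the bone libraries Hoxa10 was highest in bone 1, and Hoxa9 and Hoxb4 were highest in bone 2. The part of blood cells in the bone values was not tested.

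Of 11 TALE cofactors tested, 5 were higher and 1 lower in thymus against bone, 4 higher and 2 lower in thymus against skin, and 0 higher and 5 lower in bone against skin, with medians of 1.03, 0.28 and -0.47 on the log2 scale. Among all genes tested 16.5% and 16.1%, 19.3% and 18.3%, and 23.7% and 23.4% were higher and lower in these comparisons. The 0 also held by DESeq2 and by edgeR at an unadjusted p under 0.05. Meis1, which binds beside Hox proteins, averaged 70.7 ± 10.2 CPM in thymus, 10.8 ± 6.42 CPM in bone and 33.3 ± 3.91 CPM in skin. It was higher in thymus than in bone by 2.71 ± 0.35 (log2, SE; adjusted p = 0.000245) and than in skin by 1.09 ± 0.33 (adjusted p = 0.0274), and lower in bone than in skin (log2 fold change -1.62 ± 0.34, adjusted p = 0.00308). Meis2 averaged 48.5 ± 17.4 CPM in thymus, 6.72 ± 4.13 CPM in bone and 40.0 ± 3.75 CPM in skin, with bone below skin (log2 fold change -2.57 ± 0.49, adjusted p = 0.00203), and thymus above bone by 2.85 ± 0.50 (adjusted p = 0.00187). Tgif1, a TALE repressor of TGF-beta signalling, was lower in thymus, at 19.5 ± 4.99 CPM, against 53.1 ± 10.6 CPM in bone (log2 fold change -1.45 ± 0.23, adjusted p = 0.000571) and 56.6 ± 14.9 CPM in skin (-1.54 ± 0.23, adjusted p = 0.000313).

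**Figure D5:**
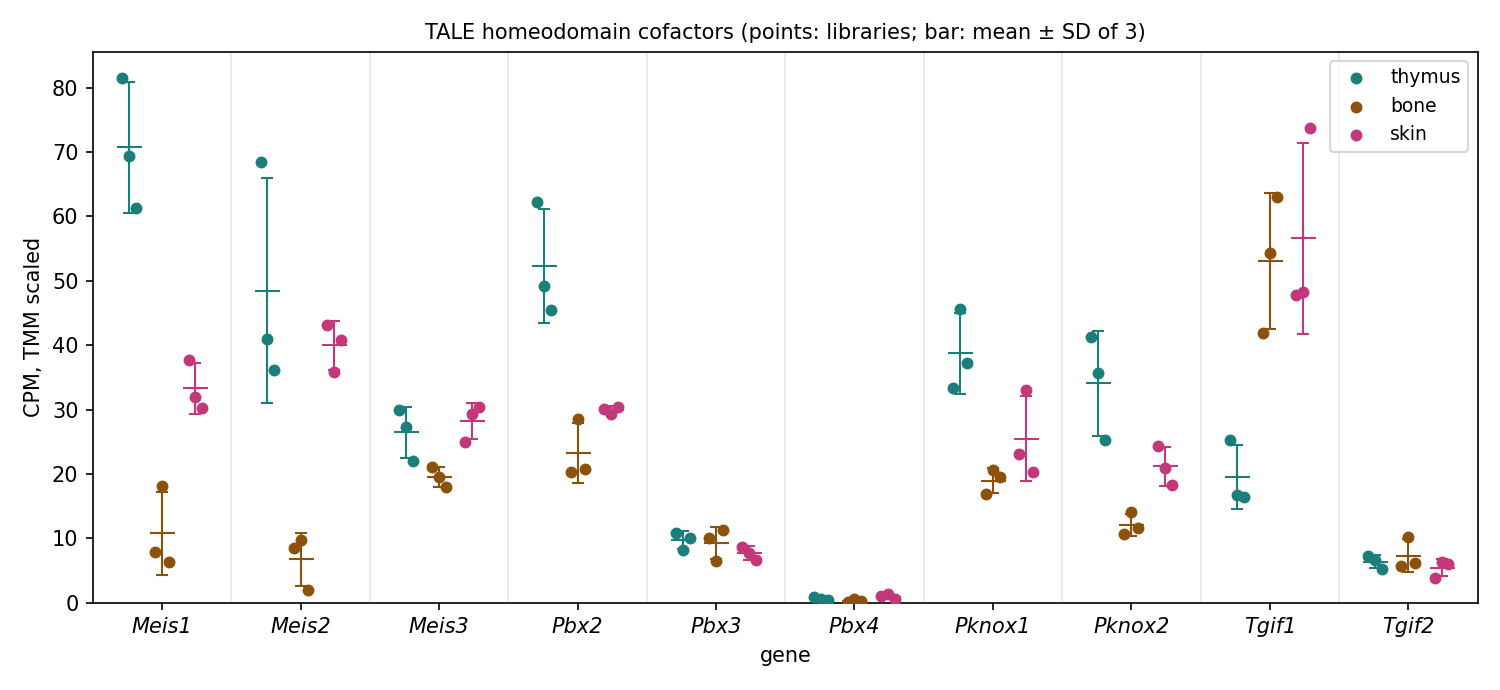
CPM of 10 TALE homeodomain cofactors in each library (points) with mean ± SD of 3, and thymus left of bone and bone left of skin for each gene. Meis1 and Meis2 are lowest in bone, and Tgif1 is lowest in thymus.

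Genes of the Polycomb complexes went both ways in thymus against bone and in bone against skin. Of 26 tested, 4 were higher and 6 lower in thymus against bone, beside 16.5% and 16.1% of all genes tested. In thymus against skin 6 were higher and 0 lower, beside 19.3% and 18.3%. In bone against skin 9 were higher and 4 lower, beside 23.7% and 23.4%. For the 0 lower in thymus against skin, DESeq2 called 0 and edgeR had 1 at an unadjusted p under 0.05. Ezh2, the main methyltransferase of PRC2, averaged 9.64 ± 2.17 CPM in thymus, 29.6 ± 2.85 CPM in bone and 10.4 ± 2.06 CPM in skin, and it was lower in thymus than in bone (log2 fold change -1.62 ± 0.22, adjusted p = 0.000142) and higher in bone than in skin (1.504 ± 0.22, adjusted p = 0.000156). Suz12, another PRC2 subunit, was at 23.5 ± 5.84 CPM in thymus, 47.9 ± 3.26 CPM in bone and 10.3 ± 1.503 CPM in skin, and passed in each comparison. Bmi1, of PRC1, was at 19.1 ± 2.37 CPM in thymus, 36.7 ± 1.84 CPM in bone and 10.2 ± 1.68 CPM in skin and also passed in each. Cbx6 was higher in thymus than in bone, at 195 ± 9.92 CPM against 85.1 ± 10.3 CPM (log2 fold change 1.19 ± 0.15, adjusted p = 7.11e-05). Of 11 trithorax, H3K4 methyltransferase and H3K27 demethylase genes listed, 7 were in the count tables and tested. The methyltransferase genes of the list, Kmt2a, Kmt2b, Kmt2c and Kmt2d, were not there under these symbols, so none of them was tested. Of the 7, 1 was higher and 2 lower in each comparison. The demethylase gene Kdm6b averaged 64.3 ± 17.3 CPM in thymus, 230 ± 31.8 CPM in bone and 447 ± 48.5 CPM in skin, lower in each tissue than in the next (adjusted p = 2.31e-05 for thymus against bone and 0.00142 for bone against skin).

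Genes that act upstream of Hox genes in the embryo were tested as well, 13 in all. In thymus against bone 3 were higher and 5 lower, beside 16.5% and 16.1% of all genes tested. In thymus against skin 4 were higher and 5 lower, beside 19.3% and 18.3%. In bone against skin 4 were higher and 4 lower, beside 23.7% and 23.4%. Aldh1a2, a retinoic acid synthesis enzyme, averaged 20.1 ± 6.53 CPM in thymus, 64.8 ± 11.7 CPM in bone and 1.47 ± 0.415 CPM in skin, and passed in each comparison (log2 fold changes -1.69 ± 0.26, 3.77 ± 0.29 and 5.46 ± 0.31). Aldh1a1, of the same enzyme family, was at 40.2 ± 4.66 CPM in thymus, 8.15 ± 1.99 CPM in bone and 84.8 ± 18.0 CPM in skin, and passed in each as well (2.30 ± 0.21, -1.07 ± 0.20 and -3.38 ± 0.22). Cyp26b1, which degrades retinoic acid, was at 1.72 ± 0.879 CPM in thymus, 30.8 ± 7.83 CPM in bone and 14.9 ± 7.21 CPM in skin, and was called lower in thymus than in either (-4.16 ± 0.49 and -3.11 ± 0.47). Cdx2 and Cdx4 had 0 reads in all 9 libraries, and Cdx1 had 17 reads, all in thymus.

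Transcripts inside the clusters other than the members were mostly too low to test. Of 12 in the count tables, 5 were tested. In thymus against bone 1 was higher and 3 lower, beside 16.5% and 16.1% of all genes tested. In thymus against skin 0 were higher and 2 lower, beside 19.3% and 18.3%. In bone against skin 2 were higher and 1 lower, beside 23.7% and 23.4%. DESeq2 also called 0 higher in thymus than in skin, and 0 were so by edgeR at an unadjusted p under 0.05. Mira, between the Hoxa6 and Hoxa7 genes, averaged 0.134 ± 0.119 CPM in thymus, 2.11 ± 0.297 CPM in bone and 2.27 ± 0.672 CPM in skin, and was lower in thymus than in either (log2 fold changes -3.96 ± 1.06 and -4.07 ± 1.06). Hotair, in the Hoxc cluster, had 0 reads in thymus, 0, 28 and 60 reads in bone and 18, 6 and 0 reads in skin, and was called in no comparison. The 6 miRNA hairpins of the clusters, Mir10a, Mir10b, Mir196a-1, Mir196a-2, Mir196b and Mir615, had 0 reads in the count tables of all libraries. The authors' RPKM was not 0 for all of them. Mir196b was at 1.92 RPKM in bone 3, 0.956 in skin 1 and 0.0988 in skin 2. Mir196a-2 was at 0.963 RPKM in bone 2 and Mir615 at 0.707 RPKM in thymus 2. In GENCODE vM21 Mir196b overlaps Hoxa9 on the same strand, and Mir196a-2 and Mir615 overlap Hoxc5.

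The genes that flank the clusters were looked at in the same fit. Of the 24 nearest genes, 3 on each side of each cluster, 13 were tested. Of these, 2 were higher and 0 lower in thymus against bone, beside 16.5% and 16.1% of all genes tested. In thymus against skin 5 were higher and 0 lower, beside 19.3% and 18.3%. In bone against skin 6 were higher and 0 lower, beside 23.7% and 23.4%. In thymus against bone, DESeq2 called 1 lower and edgeR had 1 lower at an unadjusted p under 0.05, and in both other comparisons each count was 0. Lnp, 89.4 kb from the end of the Hoxd cluster that holds Hoxd13, averaged 29.6 ± 2.46 CPM in thymus, 35.7 ± 4.90 CPM in bone and 14.9 ± 2.56 CPM in skin. Its difference between thymus and bone did not pass (log2 fold change -0.27 ± 0.17, adjusted p = 0.233), where Hoxd13 differed at least 188-fold. Evx1 and Evx2, homeobox genes beside Hoxa13 and Hoxd13, had 14 reads in thymus 1-3 and 0 reads elsewhere.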

How the data were processed

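Gene expression was measured by RNA sequencing of cells sorted by FACS as lineage-negative and SCA1-positive, at least 25000 per sample, per the labels' protocols. CASAVA 1.8.2, HTSeq 0.5.4 and the build mm10 are listed, without roles, per the submitters' processing notes. Neither the aligner nor the annotation or strand setting is given in the labels or file headers used here. The count tables deposited by the authors hold whole reads per gene symbol. The RPKM value and the signal (a sum of read bases per gene) are in the authors' deposited RPKM tables, and the signal was only checked against the counts.

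The 5 summary lines, 5.05 to 14.8% of the counts of a library, were left out. The 3 comparisons were fitted with the quasi-likelihood test of edgeR 4.0.16 under R 4.3.3 (robust, TMM, filterByExpr by tissue, which left 15635 genes), with all 9 libraries in 1 fit, a mean per tissue and no block, and Benjamini-Hochberg adjustment over all genes with a threshold of 0.05. The TMM factors lay between 1.104 and 1.179 for thymus libraries, between 1.161 and 1.233 for bone and between 0.701 and 0.770 for skin. The scripts were tested on simulated data. Where a tissue had 0 reads, 3 reads over its libraries served as the floor, and ratios over 1 to 3 reads carry an exact 95% interval. Among genes with 1 to 20 reads, 42.2 to 76.9% per library had an even count, as when both mates of a pair are counted, so intervals and floors cover counting error only and may be too narrow. Alternatives were other scalings and filters, DESeq2 1.42.0, limma 3.58.1 on log2 RPKM (the authors' values plus a pseudocount of 1 or 0.1), a replicate block and leaving out each library.

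The members, gene lists and motifs were chosen with earlier results of these data known. Values in every library are given for the 2 members with the highest mean RPKM per cluster and tissue and, per comparison and direction, for the 4 called members at 5 CPM or more with the largest change. The rule for genes of the lists was the smallest adjusted p, up to 4 per list and comparison, but it was not followed throughout. Some genes that meet it are given no values, such as Pknox2 and Pbx2 in thymus against bone. Others are named outside it, such as blood progenitor markers, Ebf1, Tek and genes with few or no reads. Values of 1 member and of 1 list gene are not reported here.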

Additional observations from a re-analysis of the deposited data

How the results depend on the processing

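None of the 65 calls of single members (24, 23 and 18 in the 3 comparisons) changed direction under any of 20 alternatives, and 18, 15 and 16 of them passed under every alternative that gave a value. Members called lower in thymus than in skin numbered 11 with limma on log2(RPKM + 1), where fewer members were tested, against 17 with edgeR. Members called higher in bone than in skin numbered 13 with library size only, against 8. Without scaling for composition, the median of all genes moved to 0.66 in thymus against skin and to 0.72 in bone against skin. The calls of Hoxa11, Hoxc11 and Hoxd10 in thymus against skin, which rest on low levels in skin, were lost with limma on log2(RPKM + 1). Skin had 16 members at a mean of 1 RPKM or more, against 25 at 1 CPM. In CPM instead of RPKM, the sums of Hoxa, Hoxb, Hoxc and Hoxd were 45.7, 47.8, 7.63 and 46.0 in thymus, 88.4, 3.81, 44.6 and 40.9 in bone, and 29.1, 49.7, 152 and 21.3 in skin. The share of groups 1 to 4 in thymus was then 80.2%, and that of groups 5 to 8 was 18.6% in thymus, 18.2% in bone and 45.1% in skin.

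With a replicate block, which leaves out thymus 1-3, 7 members were higher and 12 lower in thymus against bone, 6 and 16 in thymus against skin, and 7 and 10 in bone against skin. The calls lost were Hoxa4, Hoxa7, Hoxb6, Hoxb8 and Hoxd13 in thymus against bone, Hoxb9 in thymus against skin and Hoxa5 in bone against skin. Their adjusted p by edgeR with the block ran from 0.0523 to 0.115. Deviations from the tissue mean had correlations of -0.0326 to 0.0755 between same-numbered libraries and of -0.0657 to 0.0705 between differently numbered ones. These values show no sign of pairing but cannot exclude it, and the labels do not state it. Leaving out the 1 thymus library that held their reads left Hoxc9, Hoxc10, Hoxc11 and Hoxd10 at 0 reads in thymus, and each was still called lower than in bone and than in skin. Where a tissue had 0 reads, depth limits a fold to a bound.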

Other observations

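Some members had 0 reads in 1 bone library and many in another. Hoxb7 had 0, 68 and 0 reads in bone 1, 2 and 3, and Hoxc13 had 126, 0 and 98. Over all genes with at least 50 reads in a library, 885 of 14647 had 0 reads in another library of the same tissue in bone, against 263 of 14003 in thymus and 95 of 13474 in skin. No such member was found in thymus or skin, where 17 and 28 members had at least 50 reads in a library.

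Of the 33 members at 1 CPM or more in some tissue, 9 had their highest mean in thymus, 10 in bone and 14 in skin. In groups 1 to 4 that was thymus for 8 and skin for 2 (Hoxb2 and Hoxc4), in groups 5 to 8 skin for 8, bone for Hoxa5 and thymus for Hoxd8, and in groups 9 to 13 bone for 9 and skin for 4 (Hoxb9, Hoxc9, Hoxc10 and Hoxc13).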
